A study of Mus musculus with 36 samples.

Results

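The centromere-proximal windows were positions 3 to 6 Mb of each of the 19 mouse autosomes in the mm9 build, cut into 20 kb bins. The choice used position only, and 5 bins made wholly of unknown bases were left out, so that 2845 of the 119839 autosomal bins with known bases were members. Replication timing (RT) had been read by Repli-seq: cells take up BrdU as they copy their DNA, cells in early and in late S phase are sorted apart, and the labelled DNA of each fraction is sequenced. The series held 36 libraries in 7 groups, of which 2 were analysed here through 1 domain map each, in which every bin is early (E), middle (M) or late (L). CH12 shLacZ was a mouse B cell lymphoma line, without a Rif1 knockout, infected with a lentivirus that expressed a hairpin RNA against LacZ as infection control and kept under puromycin. Its culture received IL4, CD40 and TGF beta stimulation, and its map rests on 4 libraries, the early and late fractions of 2 replicates. The methods derive sequencing replicates of CH12 cells from separately thawed vials. For Repli-seq they also name 2 technical replicates sorted per fraction, so which kind these replicates are is uncertain. The priB WT group was primary B cells with both copies of Rif1, described in the methods as activated splenic cells, with 4 libraries from 2 replicates. Neither the age of the mice nor their number per replicate is given in the sources used here, and the labels repeat the CH12 culture text for these cells. A further map, named for wild-type mouse embryonic fibroblasts (MEFs), is tied to no sample by the labels. The states had been called on merged replicates. Each condition therefore had a single map, with no replicate error for any value and no test between conditions. All 2845 bins carried a state in all 3 maps.

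RT is the order in which stretches of a chromosome are copied during S phase. Gene-rich, transcribed chromatin tends to replicate early, and compact heterochromatin late. Mouse chromosomes have their centromere next to one telomere, so each autosome begins with a short telomere, centromeric minor satellite and pericentromeric major satellite, which are tandem repeats missing from the assembly and drawn as unknown bases. In each of the 19 autosomes the assembly had 0 known bases before 3 Mb, which puts the start of the windows at the first assembled sequence next to the pericentromere. The windows thus hold the genes nearest to constitutive heterochromatin.

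The DNA at the very start of 2 windows still carried sequence like the major satellite. The best internal repeat of each bin was found as the distance, from 20 to 400 bases, at which the sequence matched itself best. Over the 2845 bins the median best match was 28.4%, whereas the first 40 kb of the chromosome 9 window matched themselves at a distance of 234 bases, the length of the major satellite unit, over 66.9% and 72.0% of bases in the 2 bins. The following units from this array are shown because they are the adjacent pair with the fewest differences outside annotated exons. They lie at chr9:3027538-3027771 and chr9:3027772-3028005 on the plus strand, read from NCBIM37, the assembly known as mm9, and capitals mark the 5 of 234 bases at which they differ.
unit 1: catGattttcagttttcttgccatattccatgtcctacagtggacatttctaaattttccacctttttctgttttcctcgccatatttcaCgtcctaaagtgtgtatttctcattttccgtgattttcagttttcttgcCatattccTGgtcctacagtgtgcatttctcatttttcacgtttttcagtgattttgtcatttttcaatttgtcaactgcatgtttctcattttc
unit 2: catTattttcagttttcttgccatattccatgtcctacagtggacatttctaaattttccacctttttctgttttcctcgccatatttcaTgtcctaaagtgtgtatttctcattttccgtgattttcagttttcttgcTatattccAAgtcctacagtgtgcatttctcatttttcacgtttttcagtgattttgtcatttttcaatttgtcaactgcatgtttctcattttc
Words of 14 letters from this 40 kb array, on either strand, were then sought in every autosomal bin, of which the median bin shared 0.01%. The next 2 bins of chromosome 9 shared 47.4% and 36.8% of their words with the array and the first bin of chromosome 11 shared 5.09%, and 1 bin outside the windows, chr2:98500001-98520000, reached 5.56%. No other autosomal bin reached 5%. Some bins matched themselves best at shorter distances. In these next 2 bins of chromosome 9 the distance was 31 bases, with 62.9% and 58.9% of bases matching. It was 21 bases at chr3:3000001-3020000 (57.6%) and chr17:3020001-3040000 (65.1%). The array was L in CH12, M in primary B cells and L in the map named for MEFs. The next 2 bins of chromosome 9 were L in all 3 maps. They shared the most words with the array, but their best distance was 31 bases. Their GC content was 49.2% and 48.6%, against 34.9% and 36.2% in the 2 bins of the array. The start of chromosome 11 was M in all 3 maps and chr2:98500001-98520000 was L in all 3. Bins that shared words with the array thus stood in different states, in primary B cells also within chromosome 9. The B cell maps were made from unique alignments, which is not stated for the map named for MEFs, and how many reads lie behind the state of a repeat bin is unknown.

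The first 120 bases of the windows of chromosomes 3, 11 and 19 (3000001-3000120, plus strand) are shown because these windows held the extremes of the maps, with chromosome 3 late almost throughout and chromosomes 11 and 19 early almost throughout. Capitals mark CG pairs, and 0 annotated exons overlap any of them.
chromosome 3: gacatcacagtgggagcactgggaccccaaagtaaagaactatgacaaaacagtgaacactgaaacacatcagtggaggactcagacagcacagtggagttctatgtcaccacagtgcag
chromosome 11: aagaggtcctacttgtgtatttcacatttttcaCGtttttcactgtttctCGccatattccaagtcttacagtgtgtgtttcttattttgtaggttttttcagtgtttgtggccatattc
chromosome 19: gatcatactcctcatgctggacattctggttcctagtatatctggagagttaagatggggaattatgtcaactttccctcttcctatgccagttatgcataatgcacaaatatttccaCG
The box bound by the centromere protein CENP-B was sought by its core letters, TTCGNNNNANNCGGG, on both strands. The windows held 13 matches in 13 bins, or 0.457% of bins, against 0.453% of bins in the rest of the autosomes. Only matches that lay within 1 bin were counted. Of these 13 matches, 7 were E in CH12, where 22.4% of window bins were E. Of the 13, 4 lay in the chromosome 11 window, which was E over 95.3% of its bins in CH12. The share of bins with these letters was thus close to that elsewhere. The telomere repeat TTAGGG, 4 copies in a row on either strand, had 43 matches in 6 bins of the windows, at 0.757 per Mb against 0.665 per Mb in the rest and 4.88 per Mb in the last 3 Mb of each autosome.

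The first question was how the windows divided between RT states, and whether they differed from other DNA. In CH12 cells 22.4% of the bins were E (Wilson 95% interval 20.9 to 23.9%), 29.5% M and 48.2% L. In primary B cells 29.5% were E, 40.0% M and 30.5% L, and in the map named for MEFs 30.8% were E, 42.5% M and 26.7% L. Intervals cover counting over bins only, neighbouring bins are not independent, and read depth is unknown from the maps.

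The rest of the autosomes, 116994 bins, were 24.5% E, 25.5% M and 50.0% L in CH12 and 29.9%, 31.6% and 38.5% in primary B cells. M bins were thus more frequent in the windows, by 4.02 percentage points in CH12, 8.43 in primary B cells and 5.49 in the map named for MEFs. L bins were fewer, with differences of -1.88, -8.02 and -2.43 points. These differences were small beside the spread between windows: the SD of the L share over the 19 windows was 31.7 points in CH12 and 29.6 points in primary B cells, and the M share exceeded that of the rest of the same chromosome in 11, 12 and 12 of 19 windows. Without chromosome 19 the L difference in CH12 turned to +0.61 points, and with chromosome 5 left out the M difference in CH12 was 1.42 points. The L share in primary B cells lay below that of the rest of the same chromosome in 14 of 19 windows, against 10 of 19 in CH12.

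The opposite ends of the chromosomes were earlier. The last 3 Mb of each autosome, 2849 bins, were 35.9% E and 33.5% L in CH12 and 36.4% E and 24.4% L in primary B cells. The E share of the proximal windows differed from these by -13.6 and -6.91 points and by -11.7 points in the map named for MEFs, while the M share differed by -1.08, 0.864 and 4.80 points. Protein-coding genes were dense at both ends, with 11.4 gene starts per Mb in the proximal windows and 12.9 in the distal ones against 8.89 in the rest of the autosomes.

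**Figure D1:**
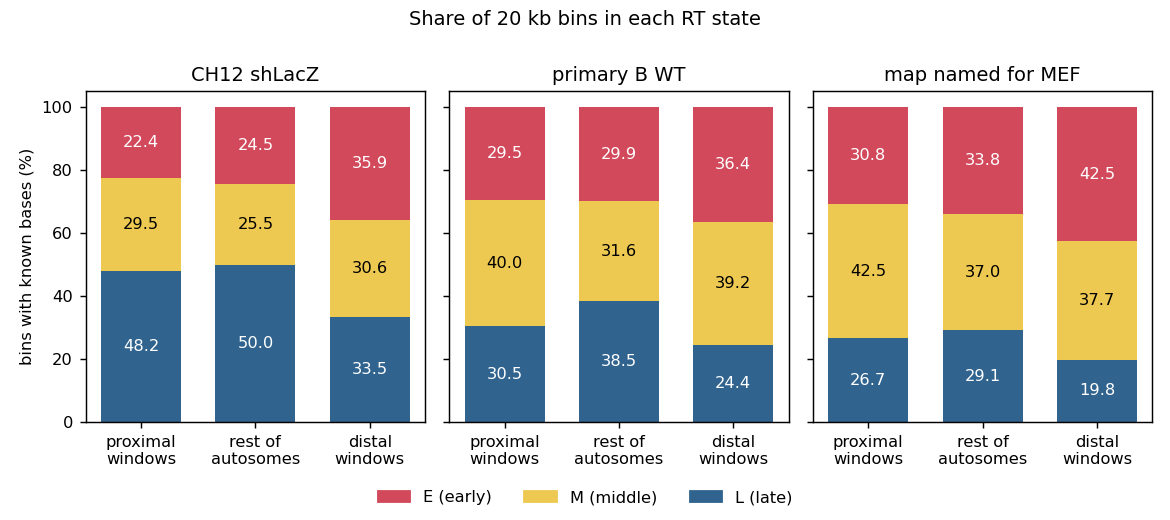
Stacked bars show the percentage of 20 kb bins in the E, M and L state (red, yellow, blue) in the centromere-proximal windows, the rest of the autosomes and the last 3 Mb of each autosome, with 1 panel per map. The proximal windows had more M bins than the rest in each map and fewer E bins than the distal windows, 22.4% against 35.9% in CH12 cells.

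The windows differed from each other far more than their sum differed from the genome. Chromosomes 11 and 19 were early in all 3 maps, with E over 95.3% and 90.0% of bins in CH12, over 86.7% and 92.0% in primary B cells and 96.0% and 92.7% in the map named for MEFs. They were also the windows of highest GC content, 46.6% and 47.7%, and held 65 and 115 protein-coding gene starts. At the other extreme, chromosome 3 was L over all 150 bins in both B cell maps and over 94.0% in the map named for MEFs, with 38.2% GC and 4 gene starts. Chromosome 9 was L over all bins in CH12 and in the map named for MEFs, with 38.4% GC and 23 gene starts, 12 of them of predicted genes in its first 40 kb. Chromosome 1 was L over 74.0% of bins in CH12, 77.3% in primary B cells and 81.3% in the map named for MEFs. An E domain was absent from 9 windows in CH12 and 6 in primary B cells. Windows of low and high GC thus stood at the ends of the same order in each map, and across the 19 windows Spearman's rho between GC content and the E share was 0.84 in CH12, 0.86 in primary B cells and 0.79 in the map named for MEFs, given as a description of windows that share 1 map. Between the number of gene starts and the E share it was lower, at 0.46, 0.46 and 0.45. Chromosome 14, with 62 gene starts, held no E bin in any map.

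The M difference varied with GC content. When bins were divided by the quintiles of GC content of all autosomal bins, M took 40.7% of window bins of the middle quintile in CH12 against 33.3% in the rest, and 56.8% against 44.2% in primary B cells. In the quintile of highest GC the order was turned, with 22.0% against 27.4% in CH12 and 19.7% against 27.5% in primary B cells, and E took 71.0% and 78.6% of window bins against 63.0% and 67.8%. In the quintile of lowest GC the M difference was -1.85 points in CH12 and 5.66 points in primary B cells. In the map named for MEFs it was -6.00 points in the quintile above the lowest, 7.09 points in the middle quintile and 11.1 points in the one above that. Weighting the rest of the autosomes to the GC quintiles of the windows left M differences of 2.56 points in CH12, 6.23 in primary B cells and 2.67 in the map named for MEFs, in which the L difference turned from -2.43 to +0.17 points.

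**Figure D2:**
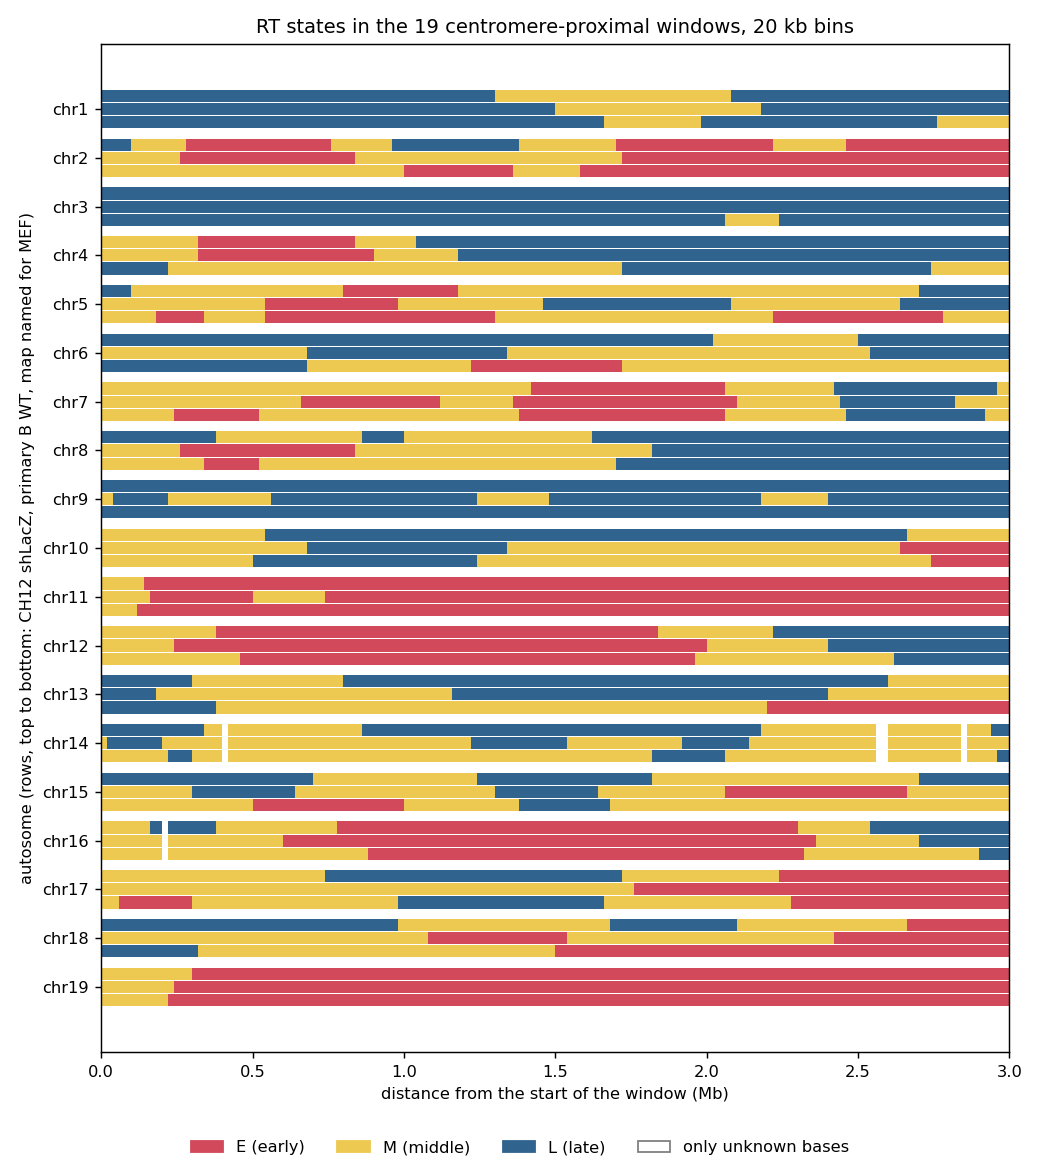
Each autosome has 3 rows, from top to bottom the CH12 shLacZ map, the primary B WT map and the map named for MEFs, and the colour of each 20 kb bin gives its state by distance in Mb from the start of the window. Chromosomes 11 and 19 are E over at least 86.7% of bins in each map, chromosomes 3 and 9 are L in CH12, and the starts of the rows hold no E bin.

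The states changed with distance from the pericentromere. In the first 0.5 Mb, E bins made up 11.4% in CH12, 16.1% in primary B cells and 16.1% in the map named for MEFs, and in the next 0.5 Mb 26.5%, 37.1% and 27.6%. M was the leading state of the first 0.5 Mb in primary B cells, with 65.5% (473 bins), against 41.9% in CH12 and 52.2% in the map named for MEFs, and it took 39.6% of the next step in primary B cells. L took 46.7% of this first step in CH12 but 18.4% in primary B cells. The windows therefore began with little early replication in any map, and with mostly middle replication in primary B cells. Without the first 300 kb the M difference from the rest in primary B cells was 4.67 points in place of 8.43.

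Further in, late bins were more frequent. At 4.5 to 5 Mb past the start of the windows, L took 73.1% of bins in CH12 and 54.7% in primary B cells, with 5.22 gene starts per Mb against 14.8 at 1.5 to 2 Mb. Windows extended to 6 Mb were L over 55.3% of bins in CH12 and over 37.2% in primary B cells, and their L difference from the rest then turned to 5.56 points in CH12. The 3 Mb next to the pericentromere were thus richer in genes and earlier than the 3 Mb that followed them. At the limit of the windows, the states of the last 20 kb inside and of the first 20 kb outside were counted alike, with 5 E, 3 M and 11 L chromosomes in CH12 and 6, 4 and 9 in primary B cells.

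**Figure D3:**
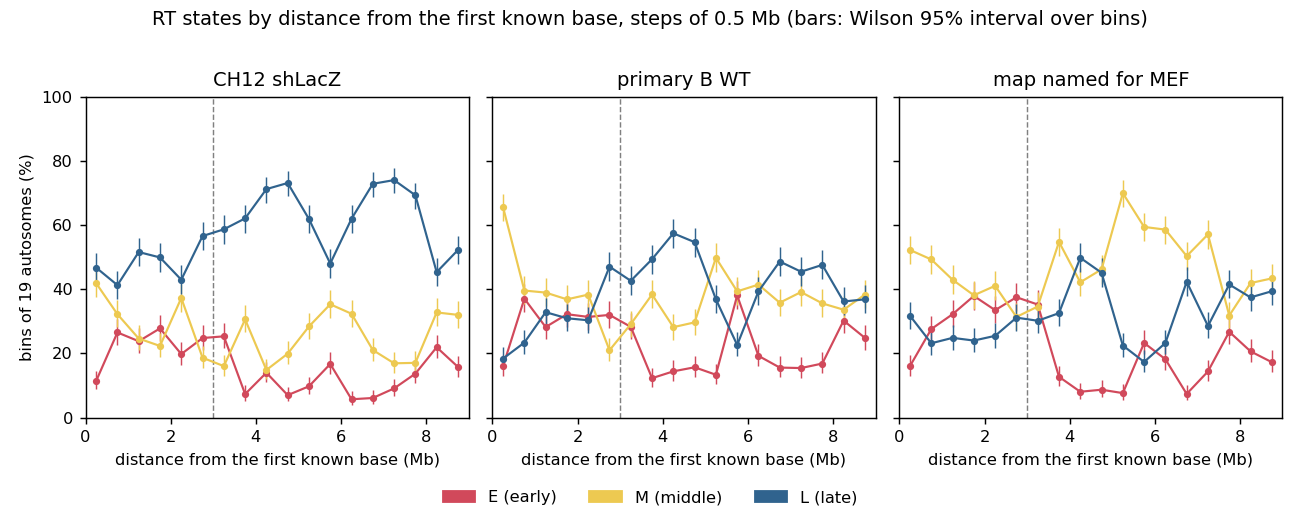
The percentage of bins in each state over 19 autosomes is plotted in steps of 0.5 Mb against distance from the first known base, with Wilson 95% intervals over bins as bars and a dashed line at the end of the windows. M is highest in the first step in primary B cells, 65.5%. Past the dashed line L takes 73.1% of bins in CH12 and 54.7% in primary B cells at 4.5 to 5 Mb. At 5.5 to 6 Mb it takes 48.0% and 22.6%.

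No autosome began in the E state. The first 20 kb bin was M on 8 and L on 11 of 19 autosomes in CH12, M on 16 and L on 3 in primary B cells, and M on 12 and L on 7 in the map named for MEFs. At the far end of the chromosomes, the last 20 kb bin was never L: it was M on 14 and E on 5 autosomes in CH12, M on 15 and E on 4 in primary B cells, and M on 15 and E on 4 in the map named for MEFs. M was frequent at both ends, and what separated the ends was the state beside it, L at the centromere and E at the telomere. Between CH12 and primary B cells the first bin passed from L to M on 8 autosomes (2, 5, 6, 8, 9, 14, 15 and 18), stayed M on 8, stayed L on chromosomes 1, 3 and 13, and passed from M to L on 0.

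Unknown sequence lies beside these first bins, and the maps treat it differently. In CH12 2849 of the 2850 wholly unknown bins before 3 Mb carried M and 1 carried L, in the map named for MEFs 2700 carried M and 150 carried L, and in primary B cells 2700 had no state and 150, all before the chromosome 19 window, carried M. On all 8 autosomes that began with M in CH12, the unknown bin just before had M as well. Since nearly all unknown bins carried M there, this match does not set these autosomes apart. Of the 11 autosomes that began with L, the bin just before was L on 1. Bins on either side of the internal unknown stretches of 3 or more bins numbered 36 in all. Of these, 19 were M in CH12, 17 in primary B cells and 11 in the map named for MEFs. In the rest of the autosomes M took 25.5%, 31.6% and 37.0% of bins in the same order. The part of the unknown sequence in the states of the first bins was not tested.

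The first domain reached a median of 350 kb into the window where it was M and 700 kb where it was L in CH12, and 310 kb and 1500 kb in primary B cells. The longest, on chromosome 3, stayed L for 5720 kb in CH12 and 5440 kb in primary B cells. The first E bin lay a median of 2660 kb from the start in CH12 and 1080 kb in primary B cells, with the shortest distance on chromosome 11 in both, 140 kb and 160 kb. An E bin thus came nearer to the pericentromere in primary B cells on chromosomes such as 8, where it lay at 260 kb against 8600 kb in CH12, and 10, where it lay at 2640 kb against 4340 kb. Domain boundaries in the windows numbered 1.00 per Mb in CH12, 1.12 in primary B cells and 1.02 in the map named for MEFs, against 1.01, 1.02 and 0.847 in the rest, and 0 of them joined E directly to L.

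The second comparison asked how the B cell line and the primary cells differed in these windows. The maps gave 70.7% of the 2845 bins the same state, with a Cohen's kappa of 0.56, against 76.3% and 0.64 in the rest of the autosomes. Primary B cells were earlier in 767 bins, or 27.0% (25.4 to 28.6%), against 20.2% of all autosomal bins, and later in 68 bins, or 2.39%, against 3.7%. The distal windows were earlier in primary B cells in 15.6% of bins and later in 7.23%. The states of each map were called on its own values, so a step between maps is a step in rank.

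Most of this difference was DNA that was late in CH12 and middle-replicating in primary B cells. Of the 1370 L bins of CH12 in the windows, 540 (39.4%) were M and 7 (0.511%) were E in primary B cells, against 24.6% and 1.40% of the L bins in the rest. In the distal windows these shares were 29.9% and 3.56%, also above the rest. Of the 839 M bins of CH12, 220 (26.2%) were E in primary B cells, against 27.4% in the rest, so M bins moved at about the background rate. E bins of CH12 remained E in 612 of 636 cases (96.2%), against 90.7% in the rest, and 0 became L. Bins from L to M were 57.9% of the L bins in the first 0.5 Mb and 17.6% in the last 0.5 Mb of the windows.

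The change was spread unevenly over chromosomes. The L share was lower in primary B cells than in CH12 in 14 of 19 windows, higher in 2 and equal in 3. In CH12 and primary B cells respectively it was 46.7% and 0 on chromosome 18, 32.7% and 0 on chromosome 17, 70.7% and 22.0% on chromosome 10, 84.0% and 37.3% on chromosome 6, and 58.9% and 24.7% on chromosome 14. Chromosomes 1 and 5 went the other way, with 74.0% and 77.3% on chromosome 1 and 13.3% and 32.7% on chromosome 5. Chromosome 18 had 70.0% of its window earlier in primary B cells against 24.1% of the rest of that chromosome, whereas chromosome 19 had 2.00% against 34.7%. The share of earlier bins exceeded that of the rest of the same chromosome in 10 of 19 windows, and was 24.6% over the windows without chromosome 18. The excess in the windows was thus carried by about as many chromosomes as lacked it.

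**Figure D4:**
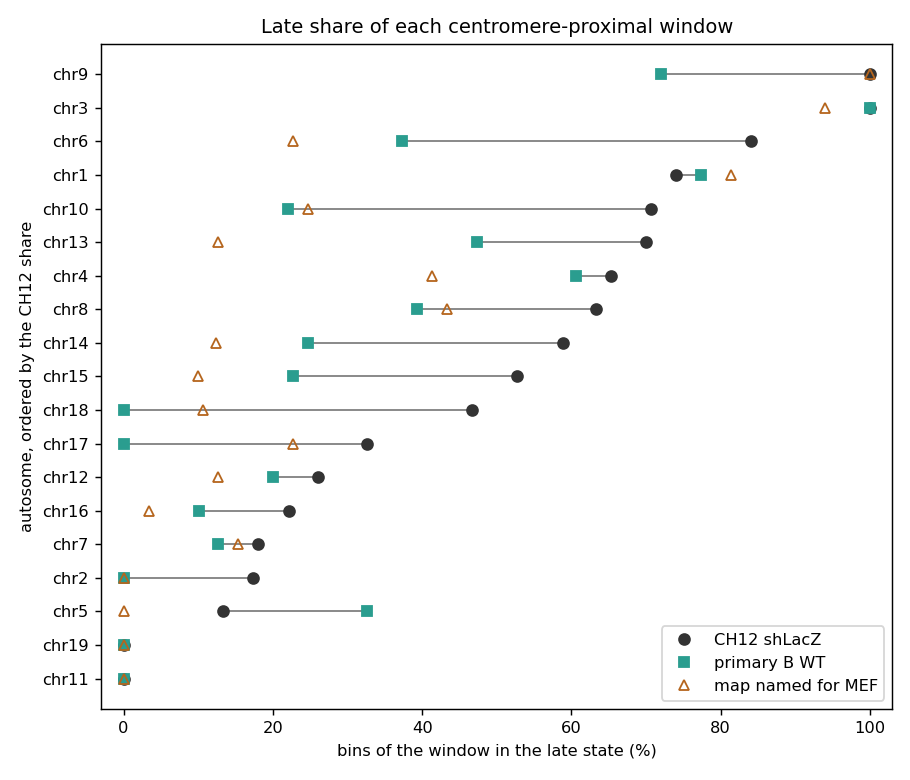
For each autosome, ordered by its CH12 value, the percentage of window bins in the L state is shown for CH12 shLacZ (circles), primary B WT (squares) and the map named for MEFs (triangles), with a line between the B cell values. The primary B value lies left of the CH12 value in 14 windows and right of it on chromosomes 1 and 5.

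The 767 earlier bins formed 57 runs on 17 chromosomes, with a median length of 160 kb, of which 39 were shorter than the 300 kb span of the smoothing. The longest was chr10:4340001-6000000, 1660 kb that reached the end of the window, with 65 bins from L to M and 17 from M to E. In the map named for MEFs this run had 70 M, 13 E and 0 L bins. It held the starts of 12 protein-coding genes. Among them Rgs17, a regulator of G protein signalling, Fbxo5, an inhibitor of the anaphase-promoting complex, Vip, which encodes vasoactive intestinal peptide, and Syne1, which encodes a nuclear envelope protein linked to the cytoskeleton, were L in CH12 and M in primary B cells. Esr1, the gene of oestrogen receptor alpha (start at position 5734948), passed from M to E. The other starts in this run were those of Mtrf1l, Myct1, Gm10097, Gm221, 1700052N19Rik, Rmnd1 and Zbtb2.

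The runs next in length had few genes. The 980 kb run chr17:3740001-4720000 passed wholly from L to M and held 0 protein-coding gene starts, and 34 of its 49 bins were L in the map named for MEFs. A run of equal length, chr18:3000001-3980000, began at the first known base and held the starts of Vmn1r238, a vomeronasal receptor, Crem, a cAMP-responsive transcription factor, Cul2, a scaffold of ubiquitin ligases, and Bambi, a pseudoreceptor of the TGF beta family. All 49 of its bins passed from L to M, and 33 of them were M in the map named for MEFs.

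A full step from L in CH12 to E in primary B cells was rare, with 7 bins in 2 runs. Of these, 6 adjoining bins, chr8:3260001-3380000, lay within a run of 840 kb from the first known base of chromosome 8 that was earlier in primary B cells and held 19 gene starts. The start of Insr, the gene of the insulin receptor (chr8:3150922-3279617, minus strand), and that of A430078G23Rik were the only protein-coding starts in the windows that were L in one B cell map and E in the other. Insr was M in the map named for MEFs and A430078G23Rik was E. Other genes of the 840 kb run were Retn, which encodes the adipose hormone resistin, Fcer2a, which encodes the low-affinity IgE receptor CD23 of B cells, and Xab2, which takes part in transcription-coupled repair, all M in CH12, E in primary B cells and M in the map named for MEFs. One match to the CENP-B box letters, at chr8:3280011-3280025, fell in the 6 bins.

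Bins later in primary B cells formed 7 runs on 4 chromosomes. The longest, chr5:4460001-5080000, was M in CH12, L in primary B cells and M in the map named for MEFs over 620 kb, and held the start of Fzd1, a Wnt receptor. The 240 kb run chr11:3500001-3740000 passed from E to M and held Morc2a, of the MORC family of chromatin ATPases, in a window that was E over 86.7% of bins in primary B cells. At 200 kb followed chr1:4300001-4500000 with Rp1, a photoreceptor microtubule protein, and Sox17, an endoderm transcription factor, both M in CH12 and L in the other 2 maps, and chr5:3980001-4180000 with Cyp51, an enzyme of cholesterol synthesis, E in CH12 and M in primary B cells. No run of later bins began at the first known base.

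The map named for MEFs was set beside both. It gave the same state as CH12 to 66.5% of window bins and as primary B cells to 67.0%, against 61.9% and 68.5% in the rest of the autosomes. It was earlier than CH12 in 29.9% of window bins, against 32.6% of all autosomal bins, and later in 3.55%, against 5.42%. It was earlier than primary B cells in 18.5%, against 21.9%, and later in 14.5%, against 9.62%. All 3 maps agreed in 53.5% of window bins, of which 19.4% of the window were E, 14.7% M and 19.4% L, and in 54.7% of the rest. Agreement on M was higher in the windows than the 10.3% of the rest, and agreement on L lower than its 24.9%. Both also held for the distal windows, of which 14.8% were M and 16.6% L in all 3 maps.

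Of the 540 bins that were L in CH12 and M in primary B cells, 301 were M in the map named for MEFs. These made up 10.6% of the windows against 8.07% of the rest, and another 71 bins were E in that map. The others were middle-replicating in primary B cells alone. Bins L in CH12, M in primary B cells and L in the map named for MEFs made up 5.91% of the windows (168 bins) against 2.23% of the rest and 0.948% of the distal windows. They took 14.2% of the first 0.5 Mb and between 1.48% and 7.79% of each later step. They lay on 11 chromosomes, with 42 bins on chromosome 9, 34 each on chromosomes 6 and 17 and 16 on chromosome 18, and the longest runs were chr6:3000001-3680000 and chr17:3980001-4660000, of 680 kb each. The chromosome 6 run held Samd9l, an interferon-induced antiviral gene, as well as Hepacam2 and Ccdc132. On chromosome 9 the pattern covered the satellite array shown above and the starts of Casp1, Casp4 and Casp12, the caspases of the inflammasome family.

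Gene starts were denser in earlier states. Of 646 protein-coding gene starts, 305 (47.2%) were E, 195 (30.2%) M and 146 (22.6%) L in CH12, and 372 (57.6%), 214 (33.1%) and 60 (9.29%) in primary B cells. In the rest of the autosomes 51.9% were E in CH12 and 59.2% in primary B cells. Gene starts numbered 24.0 per Mb in E, 11.7 in M and 5.33 in L bins of the windows in CH12, against 18.8, 9.38 and 3.77 in the rest. Primary B cells were earlier at 158 starts (24.5%), against 18.3% of all autosomal starts, and later at 7 (1.08%), against 2.8%. The map named for MEFs was earlier than CH12 at 142 starts (22.0%), against 23.4%, and later at 24 (3.72%), against 5.87%. It was earlier than primary B cells at 67 starts (10.4%), against 13.6%, and later at 98 (15.2%), against 10.3%. State was E in all 3 maps at 285 starts, M in all at 97 and L in all at 20. Chromosome 19 alone held 115 of the starts, and without it 36.2% of the starts were E in CH12 and 48.4% were E in primary B cells.

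Bases upstream of gene starts carried more CG pairs in E genes than in M or L genes of the windows. In the 200 bases before the start, the median number was 11 in E, 8 in M and 3 in L genes of the windows in CH12, and 10, 7 and 2 in the rest of the autosomes. In the windows the medians were 11, 4 and 2 in primary B cells and 11, 4 and 4 in the map named for MEFs, in which M and L genes had the same median. These 200 bases are shown for 3 genes that stand for 3 patterns over CH12, primary B cells and the map named for MEFs: Rela, a subunit of NF-kappa B, E in all 3, Col1a2, a chain of type I collagen, L then M and E, and Gria4, a glutamate receptor subunit, L in all 3. They are written 5′ to 3′ on the strand of the gene, from NCBIM37 with GENCODE M1 starts, at chr19:5637283-5637482 (plus), chr6:4454614-4454813 (plus) and chr9:4796235-4796434 (minus), overlap 0 annotated exons, and have CG pairs in capitals.
Rela: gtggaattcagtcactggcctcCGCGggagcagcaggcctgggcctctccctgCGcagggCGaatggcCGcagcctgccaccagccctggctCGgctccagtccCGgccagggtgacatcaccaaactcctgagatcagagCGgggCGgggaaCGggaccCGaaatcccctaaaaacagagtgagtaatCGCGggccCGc
Col1a2: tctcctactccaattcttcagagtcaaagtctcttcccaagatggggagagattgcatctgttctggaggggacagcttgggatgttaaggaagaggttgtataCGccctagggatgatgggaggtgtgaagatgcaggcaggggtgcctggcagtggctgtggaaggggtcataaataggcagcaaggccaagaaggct
Gria4: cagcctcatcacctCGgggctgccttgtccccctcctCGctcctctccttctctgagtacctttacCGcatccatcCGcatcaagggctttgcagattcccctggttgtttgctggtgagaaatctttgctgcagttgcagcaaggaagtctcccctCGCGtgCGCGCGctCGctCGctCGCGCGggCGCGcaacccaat
Rela had 14 CG pairs, Col1a2 1 and Gria4 16. Gria4 was L in every map with the highest number of the 3, and Col1a2, with 1, was E in the map named for MEFs, so the order of the medians was not that of these single genes. At least as many CG pairs were found at 25.0% of autosomal genes for Gria4 and at 90.5% for Col1a2.

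The genes nearest to the first known base were mostly middle or late. Over the 19 autosomes the nearest protein-coding start was M on 10 and L on 9 in CH12, and in primary B cells 14 were M, 3 were L and those of Insr and of Mrpl21, a mitochondrial ribosomal protein gene on chromosome 19, were E. The closest of all, Gm10722, started 0.922 kb into the chromosome 9 window inside the satellite array. Sfi1, which encodes a centrosomal protein, started 93.5 kb into the chromosome 11 window and was M in all 3 maps, although most of that window was E. Cdk6, a cell cycle kinase on chromosome 5, was also M in all 3, while Xkr4 on chromosome 1 and Hnf4g on chromosome 3 were L in all 3. Those L in CH12 and M in primary B cells were Fam171a1, Samd9l, Gm10722, Sepp1, which encodes a selenium transport protein, and Vmn1r238. The remaining starts, M in both B cell maps or L in both, were those of Vmn1r2, Gm7353, Cnksr3, 1700012B15Rik, Gdi2, Gm2888, Olfr161 and Scaf8.

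The lists drawn up for the windows held genes of 4 kinds. The list headed DNA repair and replication had 13 genes in the windows, of which 9 were E in CH12 and 11 in primary B cells, where E took 51.8% and 59.2% of all autosomal starts. It is a loose list: Cdc123, Akap9, Drg1, Trap1, Tfb1m and Alkbh8 are best known for other roles, and replication and repair genes such as Mcm10, Mus81, Pold2 and Rnaseh2c, named here after their values were seen and E in all 3 maps, are not in it. Slx4, a scaffold of structure-specific nucleases, Rad9, of the checkpoint clamp, Pola2, a subunit of DNA polymerase alpha, Kat5, the TIP60 acetyltransferase, Cdc123, Akap9, Drg1 and Trap1 were E in all 3 maps. Dclre1c, which encodes the Artemis nuclease of V(D)J recombination, was E in both B cell maps and M in the map named for MEFs. Ighmbp2, a helicase named for the immunoglobulin mu switch region, and Xab2 passed from M in CH12 to E in primary B cells. Alkbh8, a tRNA-modifying enzyme on chromosome 9, was L, M and L in the 3 maps, and Tfb1m was M in all 3.

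Of 11 genes listed as chromatin regulators 8 were E in CH12 and 9 in primary B cells, beside the same shares of all starts. The de novo DNA methyltransferase Dnmt3a, the acetyltransferase Crebbp, Ncoa1, Upf2, a factor of nonsense-mediated mRNA decay, and the H4K20 methyltransferases Suv420h1 and Suv420h2, which mark pericentromeric heterochromatin, were E in all 3 maps. Suv39h2, an H3K9 methyltransferase of the same heterochromatin, was E in both B cell maps and M in the map named for MEFs. Arid1b and Zeb1 passed from M to E in primary B cells, Zfhx4 was L in both B cell maps, and Morc2a was the 1 gene of the list that was later in primary B cells.

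Of 26 genes of B cell and immune signalling, 12 were E, 8 M and 6 L in CH12, and 16 E, 10 M and 0 L in primary B cells. Of all starts in the windows, 22.6% were L in CH12 and 9.29% in primary B cells. Rela, Xbp1, the plasma cell transcription factor, the cytokines Lif, Osm and Il11, Unc93b1, which traffics Toll-like receptors, Ptprcap, Coro1b, Nlrc3, Pik3ip1 and Tcirg1 were E in all 3 maps. Lyn, a kinase downstream of the B cell receptor, was E in both B cell maps and M in the map named for MEFs. Primary B cells were earlier at 10 of the 26, against 18.3% of all autosomal starts and 24.5% of those in the windows. From M to E passed Cd209a, Map3k8, Ptger4, a prostaglandin E receptor, and Mefv, and from L to M passed Casp1, Casp4, Casp12, Samd9l, Crem and C6, a complement component. Cdk6, Ccl25, Map2k7 and C7 were M in all 3 maps. The median step between the maps was 0 states, as over all autosomal starts.

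Of 29 hormone, matrix and neural genes, 6 were E and 13 L in CH12, 10 E and 8 L in primary B cells, and 11 E and 6 L in the map named for MEFs. In the same order, E took 47.2%, 57.6% and 53.6% of all starts in the windows, and L 22.6%, 9.29% and 9.44%. Lrp5, Nefh, Nf2, Adcy3 and Pomc, the precursor of ACTH, were E in all 3 maps. Oprk1, the kappa opioid receptor gene, Gria4 and Xkr4 were L in all 3. Primary B cells were earlier at 11, among them Insr, Esr1, Retn and Plag1, with E reached from L or M, and Oprm1, the mu opioid receptor gene, Penk, Ppp1r9a, Syne1, Col1a2, Sgce and Peg10, with M reached from L. Fzd1, Sox17 and Rp1 were later. Ghr, the growth hormone receptor gene, was L in both B cell maps and E in the map named for MEFs, in which Col1a2, Sgce and Peg10 were E as well. Calcr was L in both B cell maps and M in the map named for MEFs, Mos was E, E and M, Cdk14 and Klf6 were M, M and E, and Tiam2 and Pon1 were M in all 3. Over the 4 lists, 26 of 79 genes were earlier in primary B cells and 4 later. The shares were 24.5% and 1.08% of all starts in the windows, and 18.3% and 2.8% of all autosomal starts. Some listed genes are neighbours within 1 run, such as Casp1, Casp4 and Casp12, or Col1a2, Sgce, Peg10 and Ppp1r9a, and are not independent.

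**Figure D5:**
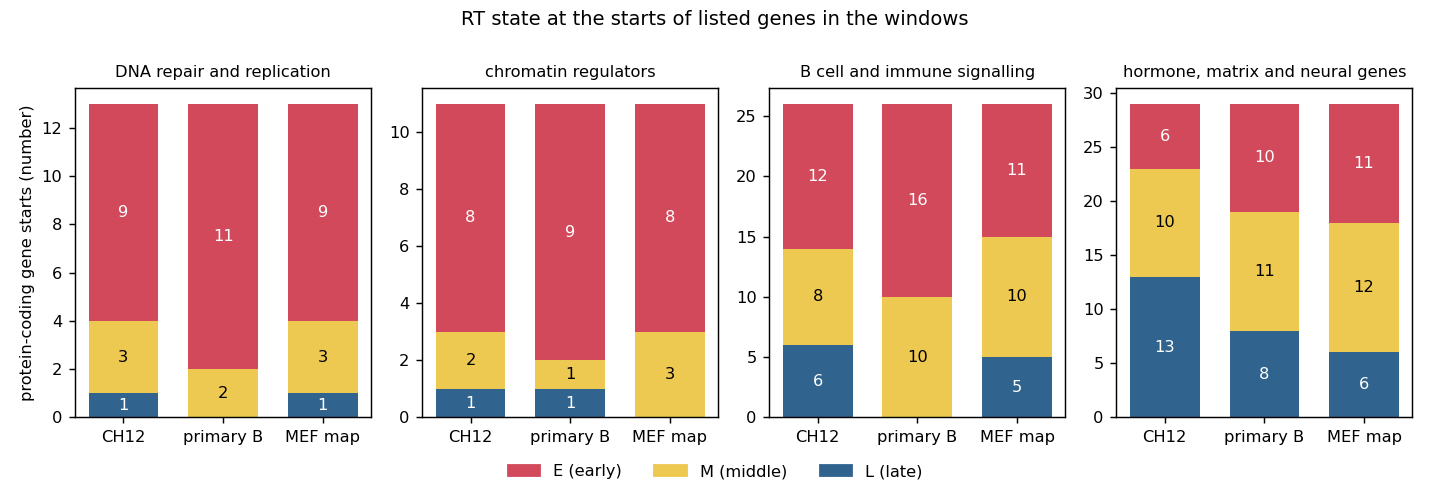
Stacked bars count the starts of listed genes in the E, M and L state (red, yellow, blue) in the CH12 map, the primary B map and the map named for MEFs, with 1 panel per list. In CH12 E takes 9 of 13 genes of the list headed DNA repair and replication and 8 of 11 of that of chromatin regulators, where 47.2% of all starts in the windows are E. The immune list has 6 L genes in CH12 and 0 in primary B cells. L takes 22.6% and 9.29% of all starts in the windows in these 2 maps.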

How the data were processed

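Repli-seq reads of early and late S phase fractions had been trimmed with trim_galore 0.6.5, aligned to mm9 with bwa mem 0.7.17 and filtered for unique alignments with samtools 1.9. The authors merged replicates, removed duplicates, divided early by late reads on a log2 scale in 20 kb windows, smoothed it by loess over 300 kb and called 3 states with a hidden Markov model. For the map named for MEFs these steps are not given in the sources used here. The deposited maps hold a state number per domain, which is no score or RT value, and leave neither replicate spread nor depth, so edges are blurred and no count per library could be used. State numbers 2, 1 and 0 were read as E, M and L in both B cell maps and 0, 2 and 1 in the map named for MEFs. In each map this order was also that of gene density and GC content, for example 18.9, 9.39 and 3.78 gene starts per Mb in CH12. The last domain ended at the NCBIM37 length on 19 of 19 autosomes in each map, so coordinates, sequence and GENCODE M1 genes, placed by their start on their own strand, came from that build.

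Groups came from the sample titles. The 3 maps were compared over 2845 bins, with Wilson 95% intervals, Cohen's kappa and counts over chromosomes. Since each condition had 1 map, no test was made, and the other 5 groups were not analysed here. Members, gene lists and comparisons were chosen with earlier results of these data known, and gene families after their values were seen. Genes were named where they were the nearest to the first known base, E in one B cell map and L in the other, in the 3 longest runs in each direction (with ties), or in 4 lists with 84 entries, of which 79 start in the windows. The rest, Btbd12, Rad9a, Epc1, C9 and Pomc1, were not matched there, some of them as other names of listed genes. Other genes are named as members of a run or state pattern that the text describes. Alternatives were other window lengths, known-base and boundary filters, medians over autosomes, chromosome X, all genes, the distal windows or GC-matched bins as reference, and, added after seeing the data, leaving out each autosome. Counts, runs, kappa and intervals were checked on states simulated over the 2845 bins, and 7 of 7 checks gave back the known value. The work used numpy 2.4.6, scipy 1.17.1, pandas 2.3.3 and matplotlib 3.10.9 under Python 3.11.15.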

Additional observations from a re-analysis of the deposited data

Results flagged for a closer look

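The map named for MEFs gave the late state to 150 bins before 3 Mb that are made wholly of unknown bases, all on chromosome 1. These bins lie outside the windows, hold no known base, and were used only where the states of unknown sequence are given above. They precede the chromosome 1 window, which began L in the same map and stayed L for 1660 kb.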

How the results depend on the processing

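Of 254 values recomputed under alternatives, 156 lay within the counting interval of the value given and the others outside it. A difference changed sign in 10 of them, in 8 of which the interval of the value given excluded 0. Requiring bins with at least 50% of their bases known, or domains of at least 100 kb, moved none of the values computed under them. Differences are in percentage points, window minus reference, and the cause of each move was not tested except where fewer bins or chromosomes entered.

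With windows of 2 Mb, the M share was 45.2% in primary B cells and 45.6% in the map named for MEFs, with M differences of 13.6 and 8.62. The L share and difference in primary B cells were then 26.4% and -12.1, and the E share and difference in the map named for MEFs 28.5% and -5.41. Agreement of the B cell maps was 66.9%, kappa 0.510 and the share earlier in primary B cells 29.9%. With windows of 6 Mb, for CH12, primary B cells and the map named for MEFs in that order, the E shares were 17.9%, 24.9% and 23.4%, the M shares 26.8%, 37.9% and 46.8%, and the L shares 55.3%, 37.2% and 29.8%. The E differences were -6.89, -5.19 and -10.9, the M differences 1.33, 6.39 and 10.1, and the L differences 5.56, -1.20 and 0.748, of which those in CH12 and in the map named for MEFs changed sign. Gene starts were then L at 26.3% in CH12 and E at 46.9% and M at 42.8% in the map named for MEFs.

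Without the first 300 kb, the E shares were 24.5%, 32.1% and 32.9% in the same order and the E differences -0.0135, 2.19 and -0.972, while in primary B cells the M share was 36.3% and the M difference 4.67, and gene starts were L at 7.17% in the map named for MEFs. Without bins within 100 kb of a boundary, E, M and L shares in CH12 were 24.2%, 24.8% and 51.0%, E and M shares in primary B cells 32.8% and 35.8%, the E difference in primary B cells 1.77 (it changed sign here and without the first 300 kb), and the L differences -4.45 in CH12 and -10.6 in primary B cells. Agreement was then 79.3%, kappa 0.685 and the share earlier in primary B cells 19.4%, against 12.1% in the rest under the same filter.

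As medians over autosomes, the E shares were 11.3%, 19.3% and 26.7%, the E differences -11.1, -10.6 and -6.31, and the L shares 52.7%, 22.7% and 12.7%. The L differences were -16.8 in primary B cells and -12.6 in the map named for MEFs, where the M share was 48.3% and the M difference 13.9, and the share earlier in primary B cells was 24.0%. With chromosome X added, L took 50.6% of bins in CH12 and 28.7% in the map named for MEFs, and 28.7% of bins were earlier in primary B cells. Against the distal windows, the E differences were -13.6, -6.91 and -11.7, the M differences -1.08 in CH12 and 0.864 points in primary B cells, and the L differences 14.6, 6.04 and 6.88, so that L changed sign in each map and M in CH12. Against bins of the same GC quintiles, the M and L differences were 6.23 and -6.10 in primary B cells and 2.67 and 0.167 in the map named for MEFs, where L changed sign. With all annotated genes, starts were E at 42.8%, 52.7% and 47.7%, and M at 41.1% in the map named for MEFs.

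Leaving out 1 autosome at a time, the M difference ranged from 1.42 to 5.81 in CH12, from 6.46 to 10.5 in primary B cells and from 2.93 to 7.85 in the map named for MEFs, lowest without chromosome 5, 14 and 14. The L difference ranged from -5.27 (without chromosome 9) to 0.614 (without chromosome 19, a change of sign) in CH12, from -11.2 to -6.29 in primary B cells and from -6.93 (without chromosome 9) to -0.868 (without chromosome 16) in the map named for MEFs. Agreement was at most 72.9% and the share earlier in primary B cells at least 24.6%, both without chromosome 18. No paired analysis was possible because each map was called on pooled replicates. Depth is unknown, the thresholds between states can differ between maps, and runs under the smoothing span may not be resolved.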

Other observations

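The following gene families of the windows were chosen after their values were seen and are given as values. Of all starts in the windows, E, M and L took 47.2%, 30.2% and 22.6% in CH12. The shares were 57.6%, 33.1% and 9.29% in primary B cells, and 53.6%, 37.0% and 9.44% in the map named for MEFs. Primary B cells were earlier at 24.5% of the starts in the windows and 18.3% of all autosomal starts. Members of a family are mostly neighbours and are not independent. The 9 Akr1c and Akr1e aldo-keto reductases of chromosome 13, enzymes of steroid and xenobiotic metabolism, were all L in CH12, 7 L and 2 M in primary B cells, and all M in the map named for MEFs. The 10 genes of the leukocyte receptor complex on chromosome 7, immune receptors such as Lair1, Lilrb3 and Pira2, were all M in CH12 and 5 M and 5 E in primary B cells, while 9 were M in the map named for MEFs. The 7 Cd209 lectins of chromosome 8 were 4 M and 3 L in CH12, and 6 M and 1 E in primary B cells. The calcium channel subunit genes Cacng6, Cacng7 and Cacng8, neighbours on chromosome 7, were M in both B cell maps and E in the map named for MEFs. The 16 entries of vomeronasal receptors, in which Vmn1r63 has 2, were 8 M and 8 L in CH12, and 1 E, 9 M and 6 L in primary B cells. The DNA polymerase subunit genes Polm, Pold2, Pold4 and Pola2 were E in all 3 maps. On chromosome 14, 62 entries of predicted genes, in which Gm3164 has 2, were 21 M and 41 L in CH12 and 45 M and 17 L in primary B cells. Copies of a family can share reads, so the states of such genes are uncertain.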
